A study of Mus musculus with 4 samples.

Results

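Cell cycle and DNA replication genes were followed in mouse brain after permanent middle cerebral artery occlusion (PMCAO). The 32 genes were chosen by name. Array probes were assigned to genes by accession, or else by symbol or older symbol. The deposited gene name of the probes of these genes was the symbol or an older symbol (Cdc2a for Cdk1). By the step in which their products act, 6 are G1 genes, 11 are S phase genes and 15 are mitotic genes, among 27670 gene names on the array. For 26 of the 32, a probe passed the scanner's call of well above background on each array of some RNA group, and these 26 were tested among 19130 genes. The remaining 6 were all mitotic genes.

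All mice were male C57BL/6J, 8 to 12 weeks old. In PMCAO mice a nylon filament was passed through the common carotid artery into the middle cerebral artery and left there. In sham mice the neck vessels were only exposed. Both received saline into the cerebral ventricle, so neither group was free of anaesthesia, surgery and injection, and brains were taken 6 h or 24 h after that injection. The 4 groups of RNA, PMCAO and sham at 6 h and at 24 h, stood for 3 mice each. How the RNA of the 3 mice was combined, and whether sample 1 and sample 2 of a time were separate RNA, is not given in the sources used here. The design text names the hemisphere opposite to the occluded artery as the tissue hybridised, while the sample labels say brain. RNA came from whole tissue, so more cells with a transcript and more transcript per cell cannot be told apart.

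Each of the 4 arrays compared PMCAO RNA with sham RNA of the same time, with 2 arrays per time. Sample 1 carried PMCAO RNA in the dye Cy5 and sample 2 carried it in Cy3, so the sample number and the dye orientation are the same thing here. Between 65.5% and 73.0% of probes were well above background in a channel. Values are log2 ratios of PMCAO over sham, and the error given is the standard error (SE) of the limma fit over n = 2 arrays per time. The p-values rest on how far arrays of the same time lie apart, pooled over both times and moderated by the spread of all genes. A gene thus has the same SE at 6 h and at 24 h. This can be a technical spread, and the number of arrays limits the precision of the p-values. The fit held no term for the dye, so a gap between the 2 dye orientations counts in this spread.

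Cells enter the cycle when D-type cyclins activate Cdk4 and Cdk6, which release E2F transcription factors from the retinoblastoma protein. E2F factors then drive E-type cyclins and the replication genes, among them the Mcm2 to Mcm7 helicase, Pcna and the enzymes that make deoxynucleotides. Mitotic genes are switched on later through promoter elements such as CCAAT boxes and the cell cycle genes homology region (CHR). In the adult brain most neurons have left the cycle, and cycling cells are mainly neural and oligodendrocyte precursors, glia that respond to injury, vascular cells and incoming leukocytes.

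The promoters of the genes were searched for these elements, with no test between phases. RefSeq promoter windows (GRCm38.p6) were at hand for 26 of the 32 genes, and the 250 bases before the start were searched on both strands. CHR was searched as TTTGAA or as TTCGAA, E2F as TTCCCGC, as TTGGCGC, as TTCGCGC or as TTGCCGC, and the CCAAT box as CCAAT. A CHR was in 7 of 13 mitotic windows (53.8%), in 2 of 11 S phase windows (18.2%) and in 17.1% of 32851 windows of all genes. An E2F motif was in 7 of 11 S phase windows (63.6%), in 3 of 13 mitotic windows (23.1%) and in 7.89% of all windows. A CCAAT box was in 12 of 13 mitotic windows (92.3%), in 9 of 11 S phase windows (81.8%) and in 33.8% of all windows. The 4 windows of the G1 genes Ccnd3, Ccne1 and Cdk4 held neither a CHR nor an E2F motif, and 1 held a CCAAT box. These are matches of letters, not measured binding sites. No window was at hand for Aurkb, Ccne2, Ccnd2, Ccna2, Mcm4 and Ccnd1. Windows of a mitotic gene that rose at 24 h (Bub1b), a mitotic gene whose 24 h ratio was below 0 without passing the test (Ccnb2) and an S phase gene with E2F motifs (Mcm6) are shown on the gene's strand, with every motif in capitals. The window of Bub1b lies at chr2:118597961-118598210 (plus strand), that of Ccnb2 at chr9:70421555-70421804 (minus strand) and that of Mcm6 at chr1:128359706-128359955 (minus strand). In Mcm6, 2 E2F motifs overlap in each long run of capitals.
Bub1b: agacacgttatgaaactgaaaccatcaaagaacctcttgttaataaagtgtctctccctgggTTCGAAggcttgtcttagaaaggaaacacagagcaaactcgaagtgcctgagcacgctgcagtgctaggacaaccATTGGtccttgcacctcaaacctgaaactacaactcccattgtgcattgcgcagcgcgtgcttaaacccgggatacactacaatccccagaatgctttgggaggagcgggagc
Ccnb2: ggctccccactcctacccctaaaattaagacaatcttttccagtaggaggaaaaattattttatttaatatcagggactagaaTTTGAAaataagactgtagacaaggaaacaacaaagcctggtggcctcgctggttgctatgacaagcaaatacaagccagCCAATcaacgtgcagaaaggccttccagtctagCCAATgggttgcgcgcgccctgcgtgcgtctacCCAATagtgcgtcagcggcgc
Mcm6: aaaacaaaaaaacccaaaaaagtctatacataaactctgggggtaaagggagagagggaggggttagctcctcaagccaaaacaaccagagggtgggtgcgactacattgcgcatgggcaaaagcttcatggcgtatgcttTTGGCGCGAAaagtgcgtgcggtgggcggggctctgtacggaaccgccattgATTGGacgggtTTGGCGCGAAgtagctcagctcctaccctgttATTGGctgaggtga
Bub1b and Ccnb2 each hold 1 CHR, and the number of CCAAT boxes is 1 in Bub1b, 3 in Ccnb2 and 2 in Mcm6.

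Both calls made at 24 h among the genes, a rise of Bub1b and a fall of Ccnd2, rest on oligonucleotide probes of 60 bases, and Ccnd2 had 3 of them. The first 30 bases of each are shown because the probes of Ccnd2 served as a check on each other. Positions are those of the files (mm7). The Bub1b probe lies at chr2:118381943-118382002 (plus strand). The Ccnd2 probes lie on the minus strand of chromosome 6, probe 1 at chr6:127154070-127154129, probe 2 at chr6:127173178-127173237 and probe 3 at chr6:127163669-127163728. Whether they fall in exons of coding or untranslated sequence was not analysed here.
Bub1b probe: agacagtgaattgtggaataaattctttgt
Ccnd2 probe 1: gtctctccgtcgcatactcttgctgactaa
Ccnd2 probe 2: aagagaccatcccgctgactgcggaaaagc
Ccnd2 probe 3: ccatcgatgattgcaactggaagcgtggga
Probe 1 was the brightest and stood for the gene.

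At 6 h, none of the 26 tested genes passed the test. In limma with Benjamini-Hochberg adjustment over all genes, 0 of 26 passed an adjusted p of 0.05, 0 had an unadjusted p under 0.05, and the smallest adjusted p was 0.823. Over all genes tested, 0.852% passed at 6 h, 0.815% higher and 0.0366% lower. On both arrays 6 of 26 were above 0 and 6 of 26 below 0, against 28.4% and 28.0% of all genes, and 15 of 26 means were above 0, against 48.1%. The log2 ratios ran from -0.18 for Mcm5 to 0.17 for Plk1, with a median of 0.02 against -0.01 over all genes. The 95% intervals of the single genes, not adjusted for their number, lay between -0.51 and 0.47, so changes within these bounds remain possible.

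At 24 h, 1 of the 26 rose (Bub1b) and 1 fell (Ccnd2). That is 7.69% of them, against 12.4% of all genes tested in either direction. Over all genes, 7.86% rose and 4.53% fell, as 1504 and 866 genes, a split that became 14 and 0 genes with median centring in place of loess. An unadjusted p under 0.05 was reached by 8 genes, of which Bub1b, Ccnd3, Mcm6, Mcm7, Mcm2 and Ccne2 had log2 ratios above 0 and Ccnd2 and Ccne1 below 0. The share of all genes at this unadjusted p was not counted, here or for the groups and lists below. Such counts therefore have no background beside them. The median log2 ratio was 0.13 against 0.0008 over all genes, and 19 of 26 were above 0, against 50.1% of all genes. On both arrays, 14 of 26 were above 0 and 3 of 26 below 0, against 31.0% and 30.6% of all genes. With the dye orientation (the sample number) as a term in the fit, 10 of the 26 rose and 3 fell. In that fit 3912 of all 19130 genes rose and 3684 fell, so the calls depend on how the dye is handled. Without 1 array of 24 h, the other is in 1 dye orientation and is judged by the spread of the 6 h arrays. Under that limit, the genes that rose depended on the array kept, and no count is given here. For example, Ccnd3 had a log2 ratio of 0.26 on sample 1 and 0.76 on sample 2, and Mcm4 had 0.62 and 0.04. The count that fell was 0 with the 24 h arrays alone, which is the same fit as with either 6 h array left out.

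**Figure D1:**
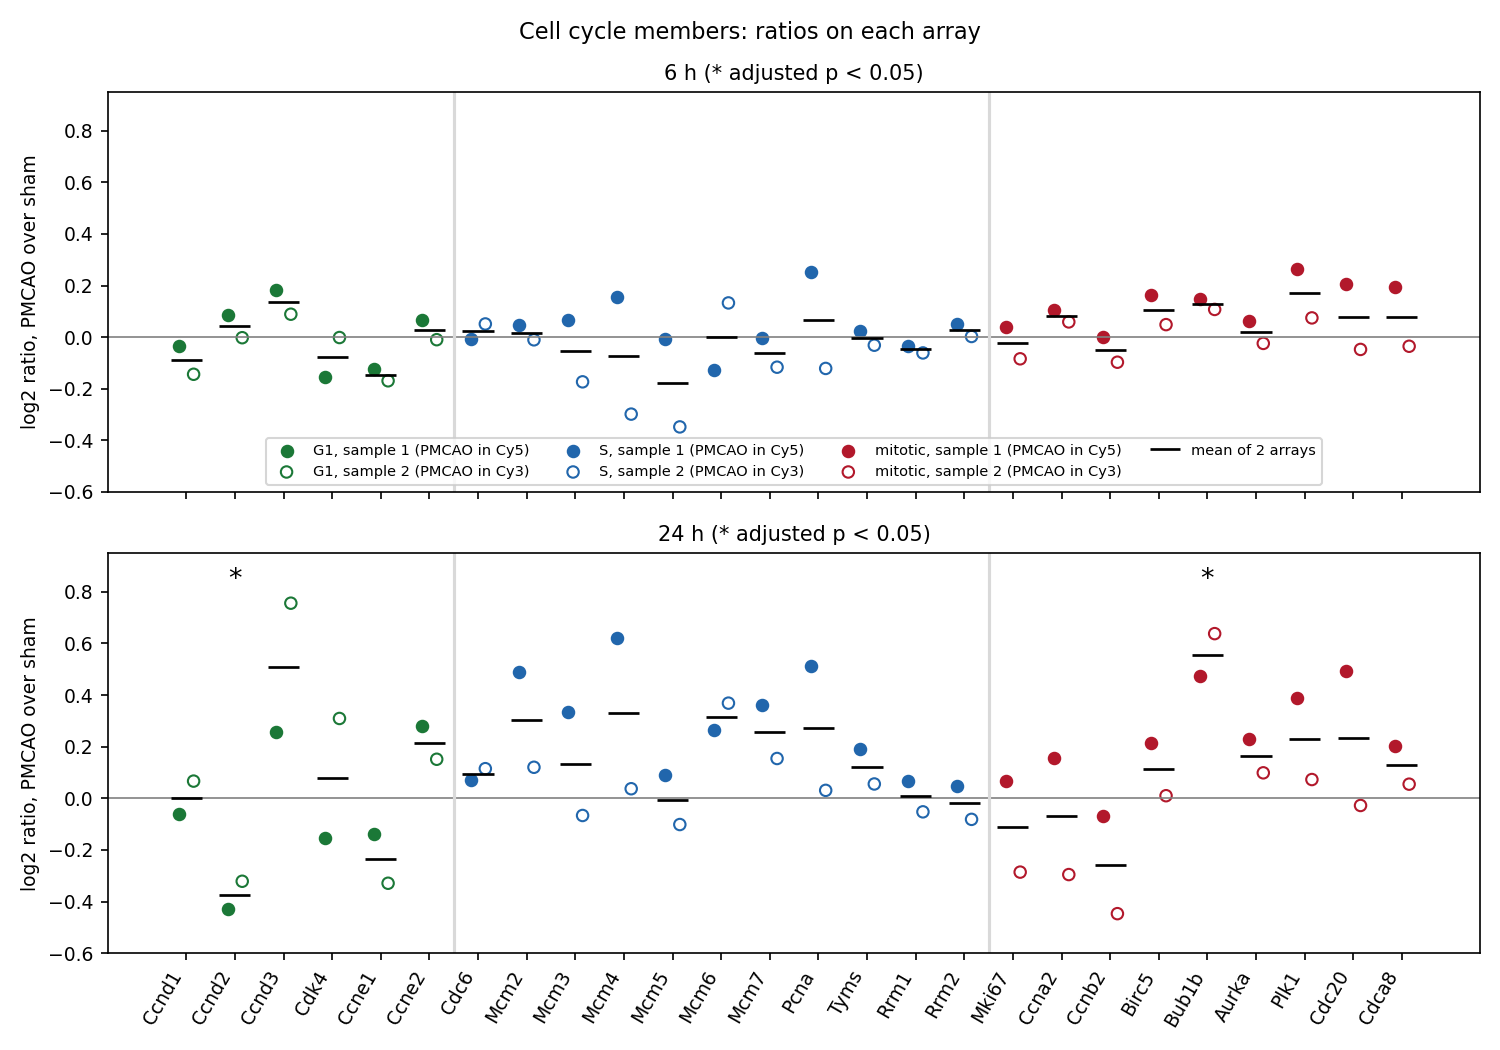
Log2 ratio of PMCAO over sham (vertical axis) for the 26 tested genes by phase (horizontal axis), at 6 h above and 24 h below. Filled points are sample 1, open points sample 2, bars the mean of the 2 arrays, and an asterisk marks an adjusted p under 0.05, which only Ccnd2 and Bub1b reached, at 24 h.

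The arrays of a time differed in a common direction. The log2 ratio was higher on sample 1 than on sample 2 for 23 of 26 genes at 6 h and for 19 of 26 at 24 h, against 60.2% and 59.8% of all genes. At 24 h the median over the 26 genes was 0.21 on sample 1 and 0.05 on sample 2. For the 11 S phase genes it was 0.26 and 0.04, and for the 9 mitotic genes 0.21 and 0.01. For the 6 G1 genes it was -0.10 and 0.11. The Pcna probe was printed many times on an array, and the log2 ratio over its 8 to 10 usable spots had a standard deviation of 0.014 to 0.026 within an array. Its array means at 24 h were 0.51 and 0.03, and the spread of spots holds no difference of sample or dye. The part of the dye orientation in the gap between arrays was not tested, since it is the same as the sample number.

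**Figure D2:**
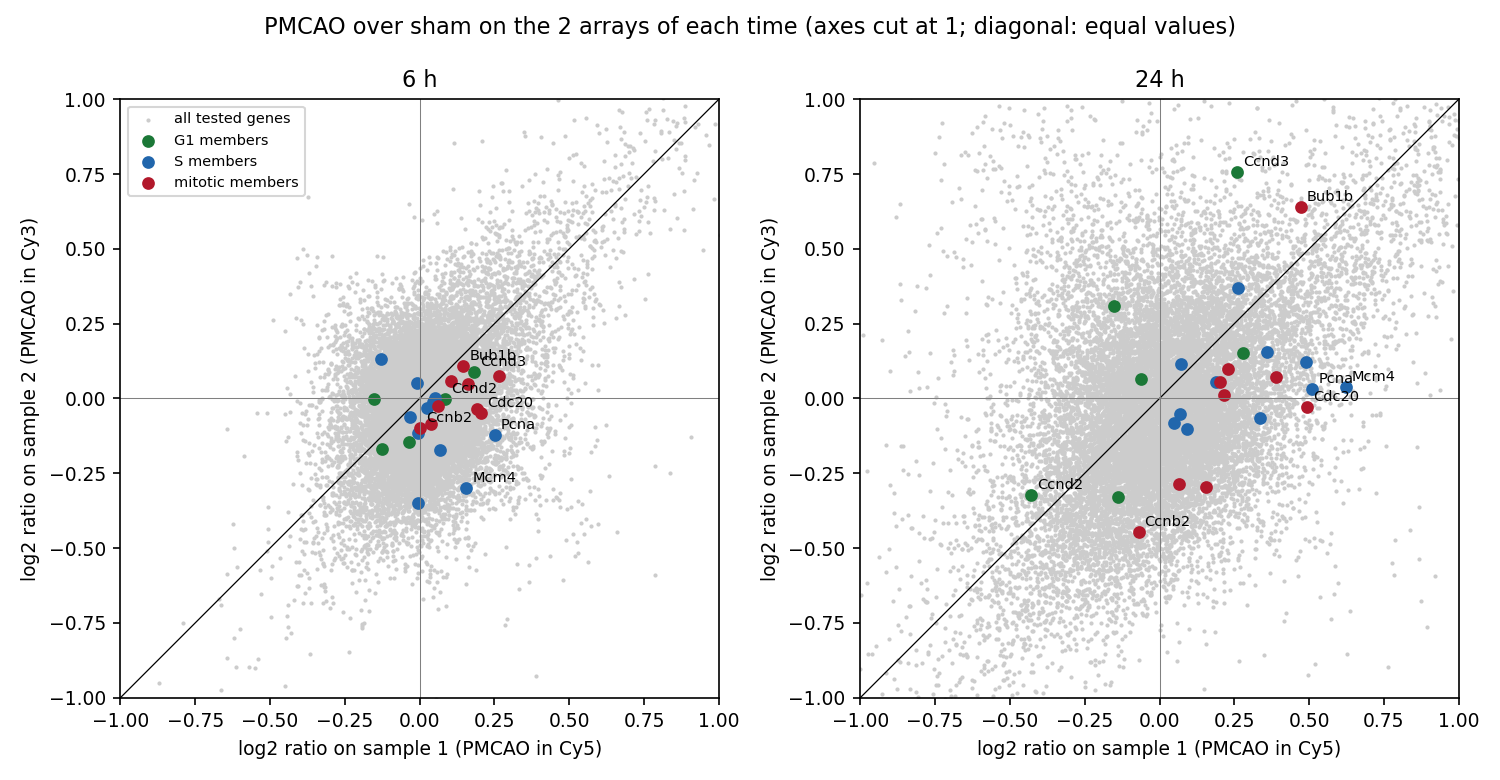
Log2 ratio of PMCAO over sham on sample 1 (horizontal axis) against sample 2 (vertical axis) at 6 h and 24 h, with all tested genes in grey and the 26 genes coloured by phase. Most coloured points lie below the diagonal (23 of 26 at 6 h, 19 of 26 at 24 h), and at 24 h Bub1b (0.47 and 0.64) and Ccnd3 (0.26 and 0.76) are above 0 on both arrays while Ccnd2 (-0.43 and -0.32) is below 0 on both.

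Of the 6 G1 genes, Ccnd2 fell at 24 h and the other 5 did not pass the test at either time. Ccnd2 encodes cyclin D2, the D-type cyclin known for its role in neural precursors. Its log2 intensity at 24 h was 12.04 and 12.06 in PMCAO RNA and 12.47 and 12.38 in sham RNA. The log2 ratios of the arrays were -0.43 and -0.32, with a mean of -0.38 ± 0.08 (SE, n = 2), or 0.771-fold, and a limma adjusted p of 0.0458. At 6 h the Ccnd2 arrays gave 0.09 and -0.002, with a mean of 0.04. With each probe tested on its own, probe 2 had a log2 ratio of -0.28 (limma adjusted p = 0.108) and probe 3 of -0.37 (0.0481) at 24 h, while probe 1 had an adjusted p of 0.0509. The call of Ccnd2 was lost with the scanner's processed signals (limma adjusted p = 0.0617) and the deposited series table (0.0621). It was also lost with the 24 h arrays alone, which is the same fit as with either 6 h array left out (0.136), and with median centring (1.00). The log2 ratios of these runs ran from -0.54 to -0.38. With sample 1 of 24 h left out the log2 ratio was -0.32.

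The other D-type cyclins and their kinase Cdk4 did not pass the test in either direction. Ccnd3 (cyclin D3) had log2 intensities at 24 h of 10.94 and 11.09 in PMCAO RNA and of 10.68 and 10.33 in sham RNA. Its log2 ratios were 0.26 and 0.76, with a mean of 0.51 ± 0.13 (SE, n = 2) and a limma adjusted p of 0.0688, so it did not pass. At 6 h the Ccnd3 arrays gave 0.18 and 0.09, with a mean of 0.14. Ccnd1 (cyclin D1) had a mean log2 ratio of -0.09 at 6 h and 0.002 at 24 h, the latter with a 95% interval of -0.21 to 0.22. Cdk4, the kinase bound by D-type cyclins, gave -0.15 and -0.002 at 6 h and -0.15 and 0.31 at 24 h, with means of -0.08 and 0.08, so its 24 h arrays had opposite signs.

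The E-type cyclins bind Cdk2 at the entry into S phase, and neither passed the test. Ccne1 (cyclin E1) was below 0 on all 4 arrays, with log2 ratios of -0.12 and -0.17 (mean -0.15) at 6 h and of -0.14 and -0.33 at 24 h. Its 24 h mean was -0.23 ± 0.09 (SE, n = 2) with a limma adjusted p of 0.157, and its second probe gave -0.32 (0.0812, with probes tested singly). Ccne2 (cyclin E2) had log2 ratios of 0.28 and 0.15 at 24 h, with a mean of 0.21 and a limma adjusted p of 0.169, and its second probe gave 0.10. At 6 h the mean log2 ratio of Ccne2 was 0.03.

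**Figure D3:**
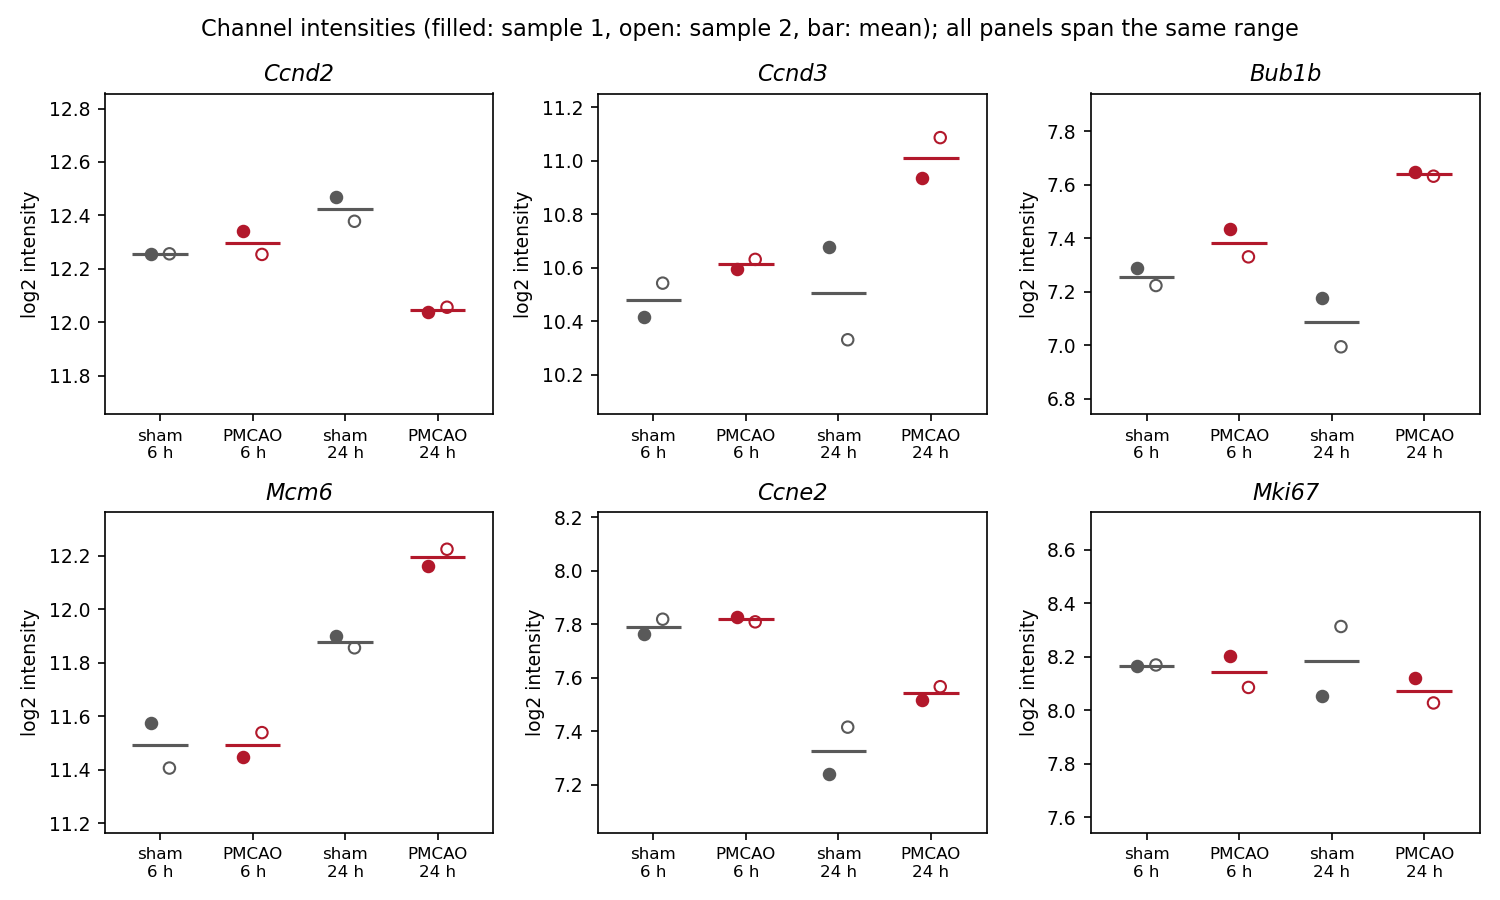
Log2 intensity (vertical axis) of 6 genes in the RNA of each group (horizontal axis), with sample 1 filled, sample 2 open and the mean as a bar. At 24 h Ccnd2 is lower in PMCAO (12.04 and 12.06) than in sham (12.47 and 12.38), Bub1b and Ccnd3 are higher in PMCAO on both arrays, Mcm6 is higher and Ccne2 lower in sham at 24 h than in sham at 6 h, and the Mki67 groups overlap.

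Of the 11 S phase genes, 0 passed the test at either time in limma, and 3 (Mcm2, Mcm6 and Mcm7) had an unadjusted p under 0.05 at 24 h. Their median log2 ratio was -0.004 at 6 h and 0.13 at 24 h. At 24 h 7 of 11 were above 0 on both arrays and 0 below 0 on both.

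The Mcm2 to Mcm7 proteins form the ring that unwinds DNA at replication forks. Mcm6 had log2 ratios of 0.26 and 0.37 at 24 h, with a mean of 0.32 ± 0.10 (SE, n = 2) and a limma adjusted p of 0.104. Its 6 h arrays, -0.13 and 0.13, had opposite signs and a mean of 0.002. Mcm4 had the highest mean of the S phase genes at 24 h, 0.33 ± 0.18 (SE, n = 2), but its arrays gave 0.62 and 0.04, and the limma adjusted p was 0.288. At 6 h Mcm4 gave 0.16 and -0.30, with a mean of -0.07. Mcm2 gave 0.49 and 0.12 at 24 h, and Mcm7 0.36 and 0.15, with means of 0.31 and 0.26 and limma adjusted p-values of 0.146 and 0.143. Their 6 h means were 0.02 and -0.06. Mcm3 gave 0.34 and -0.07 at 24 h, with a mean of 0.13, its second probe gave 0.17, and its 6 h mean was -0.05. Mcm5 was the S phase gene with the lowest log2 ratio at 6 h, with arrays of -0.01 and -0.35 and a mean of -0.18, and its 24 h mean was -0.005. Of the Mcm genes, Mcm2, Mcm4, Mcm6 and Mcm7 were above 0 on both 24 h arrays, and Mcm3 and Mcm5 were not.

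Pcna, the clamp that holds DNA polymerase on its template, had log2 ratios of 0.25 and -0.12 at 6 h and of 0.51 and 0.03 at 24 h, with means of 0.07 and 0.27. Tyms, which makes thymidylate, had a mean of -0.004 at 6 h and 0.12 at 24 h. The subunits of ribonucleotide reductase, Rrm1 and Rrm2, were near 0 at both times. Rrm1 had means of -0.05 and 0.01 and Rrm2 of 0.03 and -0.02. The 95% intervals at 24 h reached from -0.20 to 0.22 for Rrm1 and from -0.23 to 0.19 for Rrm2. Cdc6, which loads the helicase onto origins, was dim: its chosen probe was well above background in 3 of 8 channels, and on both arrays only in PMCAO RNA of 24 h. It had a log2 ratio of 0.02 at 6 h and 0.09 at 24 h, and its second probe gave -0.13 at 24 h.

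Of the 15 mitotic genes, 9 were tested, and Bub1b was the only 1 of the 9 that passed the test, at 24 h. Bub1b encodes BubR1, a kinase-like protein of the spindle checkpoint, which holds cells before the chromosomes part. Its log2 intensity at 24 h was 7.65 and 7.63 in PMCAO RNA and 7.18 and 6.99 in sham RNA. The log2 ratios were 0.47 and 0.64, with a mean of 0.56 ± 0.09 (SE, n = 2), or 1.47-fold, and a limma adjusted p of 0.0165. At 6 h they were 0.15 and 0.11, with a mean of 0.13 and a limma adjusted p of 0.874. The 24 h call held with the 24 h arrays alone (limma adjusted p = 0.0236), which is the same fit as with either 6 h array left out. With sample 1 or sample 2 of 24 h left out, the log2 ratio was 0.64 or 0.47. The call was lost with median centring in place of loess (log2 ratio 0.56, limma adjusted p = 1.00). With the scanner's processed signals the log2 ratio was larger, at 0.90 (limma adjusted p = 0.0302). The 1 probe of Bub1b was well above background in all 8 channels. Its sham intensity at 24 h was near that of the dim Cdc6 (6.72 and 6.91).

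The other 8 tested mitotic genes did not pass at either time, with 24 h log2 ratios from -0.26 to 0.23. Mki67, which encodes the proliferation antigen Ki-67, had log2 ratios of 0.04 and -0.08 at 6 h and of 0.07 and -0.29 at 24 h. The 6 h mean was -0.02, and the 24 h mean was -0.11 with a 95% interval of -0.39 to 0.17, and a second probe gave 0.04. Cyclin genes of the later cycle were not above 0 on both 24 h arrays. Ccna2 (cyclin A2) gave 0.15 and -0.30 at 24 h, with a mean of -0.07, and had a mean of 0.08 at 6 h. Ccnb2 (cyclin B2) gave -0.07 and -0.45, with a mean of -0.26 and a limma adjusted p of 0.209, and without sample 1 of 24 h, which leaves the lower array, it passed the test. At 6 h Ccnb2 gave 0.0008 and -0.10, with a mean of -0.05.

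The remaining tested mitotic genes did not pass either. Plk1, a kinase of mitotic entry and exit, gave 0.27 and 0.07 at 6 h and 0.39 and 0.07 at 24 h, above 0 on all 4 arrays, with means of 0.17 and 0.23 and a 24 h limma adjusted p of 0.245. Cdc20, which activates the anaphase-promoting complex, had arrays of 0.49 and -0.03 at 24 h with a mean of 0.23, and a mean of 0.08 at 6 h. Aurka, a spindle kinase, had means of 0.02 and 0.16 at 6 h and 24 h, with -0.02 on sample 2 of 6 h. Birc5 (survivin) had means of 0.11 and 0.11, and Cdca8 (borealin) of 0.08 and 0.13, with -0.04 on sample 2 of 6 h. Both belong to the chromosomal passenger complex.

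Top2a, Ccnb1, Cdk1, Bub1, Aurkb and Kif11 were not well above background on both arrays of any group and have no tested ratio. Over all 32 genes, 25 to 31 were well above background in a channel by their brightest probe. All 6 G1 genes were so in every channel, and of the mitotic genes 9 to 14. The 14 were reached in PMCAO RNA of 24 h on sample 1 and in sham RNA of 24 h on sample 2, both labelled with Cy5.

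The change from 6 h to 24 h was tested as the difference of the log2 ratios. In limma 0 of the 26 genes passed in either direction, against 1.6% of all genes (1.3% higher and 0.303% lower), and 1 had an unadjusted p under 0.05 in each direction. These were Bub1b, with a difference of 0.43 ± 0.12 (SE) and a limma adjusted p of 0.193, and Ccnd2, with -0.42 ± 0.12 (SE) and 0.193. In this fit the 24 h calls are thus not shown to differ from 6 h. Without sample 1 of 24 h, Bub1b and Ccnd3 passed this test, and without sample 2 of 24 h Mcm4 did.

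The sham groups of the 2 times were compared through the intensities of their own channels. Sham RNA of the 2 times never shared an array, so a difference between times cannot be told apart from one between arrays. The fit had no term for the dye and used a correlation of -0.417 between the 2 channels of a spot. In limma 1 of the 26 genes was higher at 24 h than at 6 h in sham (Mcm6) and 1 lower (Ccne2), or 7.69%, against 3.53% of all genes (1.85% higher and 1.69% lower). Mcm6 had log2 intensities of 11.58 and 11.41 in sham at 6 h and of 11.90 and 11.86 at 24 h, a difference of 0.39 ± 0.08 (SE, n = 2) with a limma adjusted p of 0.0398. Ccne2 had 7.76 and 7.82 at 6 h and 7.24 and 7.42 at 24 h, a difference of -0.46 ± 0.08 (SE, n = 2) with a limma adjusted p of 0.0301. Its second probe gave -0.39 (0.0795, with probes tested singly). The groups did not overlap for either gene, which with 2 values per group is no further test. The call of Mcm6 was lost with any 1 of the 4 arrays left out (limma adjusted p from 0.0569 to 0.465), and that of Ccne2 without sample 1 (0.214) or sample 2 (0.335) of 6 h. Both were lost without normalisation between arrays (0.679 and 0.719), and with the processed signals the Ccne2 difference was -0.83.

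Other genes of the cycle were described from lists of known function. Their counts stand beside 0.815% higher and 0.0366% lower of all genes at 6 h, and 7.86% higher and 4.53% lower at 24 h. All 5 calls at 6 h and all 17 at 24 h in these lists were lost with median centring in place of loess, where the limma adjusted p was 0.346 for Cdkn1a at 24 h and 1.00 for the others, with every log2 ratio of the same sign. Of 7 tested inhibitors of cyclin-dependent kinases, 1 rose at 6 h and 2 at 24 h, and 0 fell. Cdkn1a (p21), which p53 induces, had log2 ratios of 1.84 and 1.89 at 6 h and of 2.44 and 2.58 at 24 h, with limma adjusted p-values of 0.0038 and 0.000197. Cdkn2b (p15) had 0.67 and 0.44 at 24 h, with a mean of 0.56 and a limma adjusted p of 0.0247. Cdkn1b (p27), with a 24 h mean of 0.26, Cdkn2c (p18), with a 6 h mean of -0.15, and Cdkn3, with a 6 h mean of 0.15, did not pass.

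Of 14 growth arrest genes, 3 rose at 6 h and 6 at 24 h, and 0 fell. Gadd45b and Gadd45g, stress-induced partners of p21 and Pcna, had mean log2 ratios of 1.56 and 1.43 at 6 h and of 1.98 and 1.79 at 24 h. Btg3, an antiproliferative gene, had 0.69 at 6 h and 0.51 at 24 h. Its 6 h call was lost without sample 1 (limma adjusted p = 0.266) or sample 2 (0.549) of 6 h. Btg2 (0.85), Gadd45a (0.79) and Btg1 (0.59) rose at 24 h. The median of the list was 0.22 at 6 h and 0.27 at 24 h.

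Of 19 tested further genes of G1 and the restriction point, 0 passed at 6 h in limma, with 2 above 0 and 1 below 0 at an unadjusted p under 0.05, while 2 rose and 1 fell at 24 h. Myc, a growth transcription factor induced by mitogens, had log2 ratios of 0.24 and 0.30 at 6 h and of 1.35 and 1.20 at 24 h, where the limma adjusted p was 0.00101. Cdk6, the second kinase of D-type cyclins, had 0.83 and 0.41 at 24 h with a mean of 0.62 and a limma adjusted p of 0.0439, a call lost with the processed signals (0.107) and the deposited series table (0.104). Mycn, a relative of Myc, had -0.78 and -1.56 at 24 h with a mean of -1.17 and a limma adjusted p of 0.0330. At 6 h, without passing the test, Cdk6 had 0.61 and 0.30 with a mean of 0.45. Mycn had a 6 h mean of -0.74, the lowest of the list, and did not pass either.

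Of 37 tested further replication genes, 1 rose at 6 h, and at 24 h 3 rose and 1 fell. Cdt1, which loads the helicase together with Cdc6, had log2 ratios of 1.21 and 1.42 at 6 h and of 1.37 and 1.41 at 24 h, with limma adjusted p-values of 0.00790 and 0.000969. Gins1, a part of the active helicase, and Chaf1b, a chromatin assembly factor, had means of 0.50 and 0.57 at 24 h (limma adjusted p = 0.0200 and 0.0266). Cdc7, a kinase that fires origins, had -0.41 at 24 h (0.0352), a call lost with sample 1 or with sample 2 of 6 h left out (0.0978 each). Rpa3 and Gins3 had the next smallest p-values at 6 h, with log2 ratios of -0.22 and -0.20, and did not pass. The median of the list was -0.03 at 6 h and 0.12 at 24 h.

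Of 42 tested further mitotic genes, 0 passed at 6 h in limma, with 3 above 0 and 0 below 0 at an unadjusted p under 0.05, while 2 rose and 0 fell at 24 h. The chromosome-binding kinesin Kif22 had log2 ratios of 0.80 and 0.52 at 24 h with a mean of 0.66 (limma adjusted p = 0.0152). The kinase Melk had a mean of 0.35 (0.0494), a call lost with either array of 6 h left out (0.174 each) and without sample 2 of 24 h (0.0938). Kif23, a kinesin of cell division, had 0.33 at 24 h (0.0558). At 6 h Ccnf (cyclin F) and Cenpa, the histone of the centromere, had 0.41 and 0.40 and did not pass. The median of the list was -0.02 at 6 h and 0.09 at 24 h. Apart from Cdt1, the genes named as risen at 6 h were an inhibitor of cyclin-dependent kinases and growth arrest genes.

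**Figure D4:**
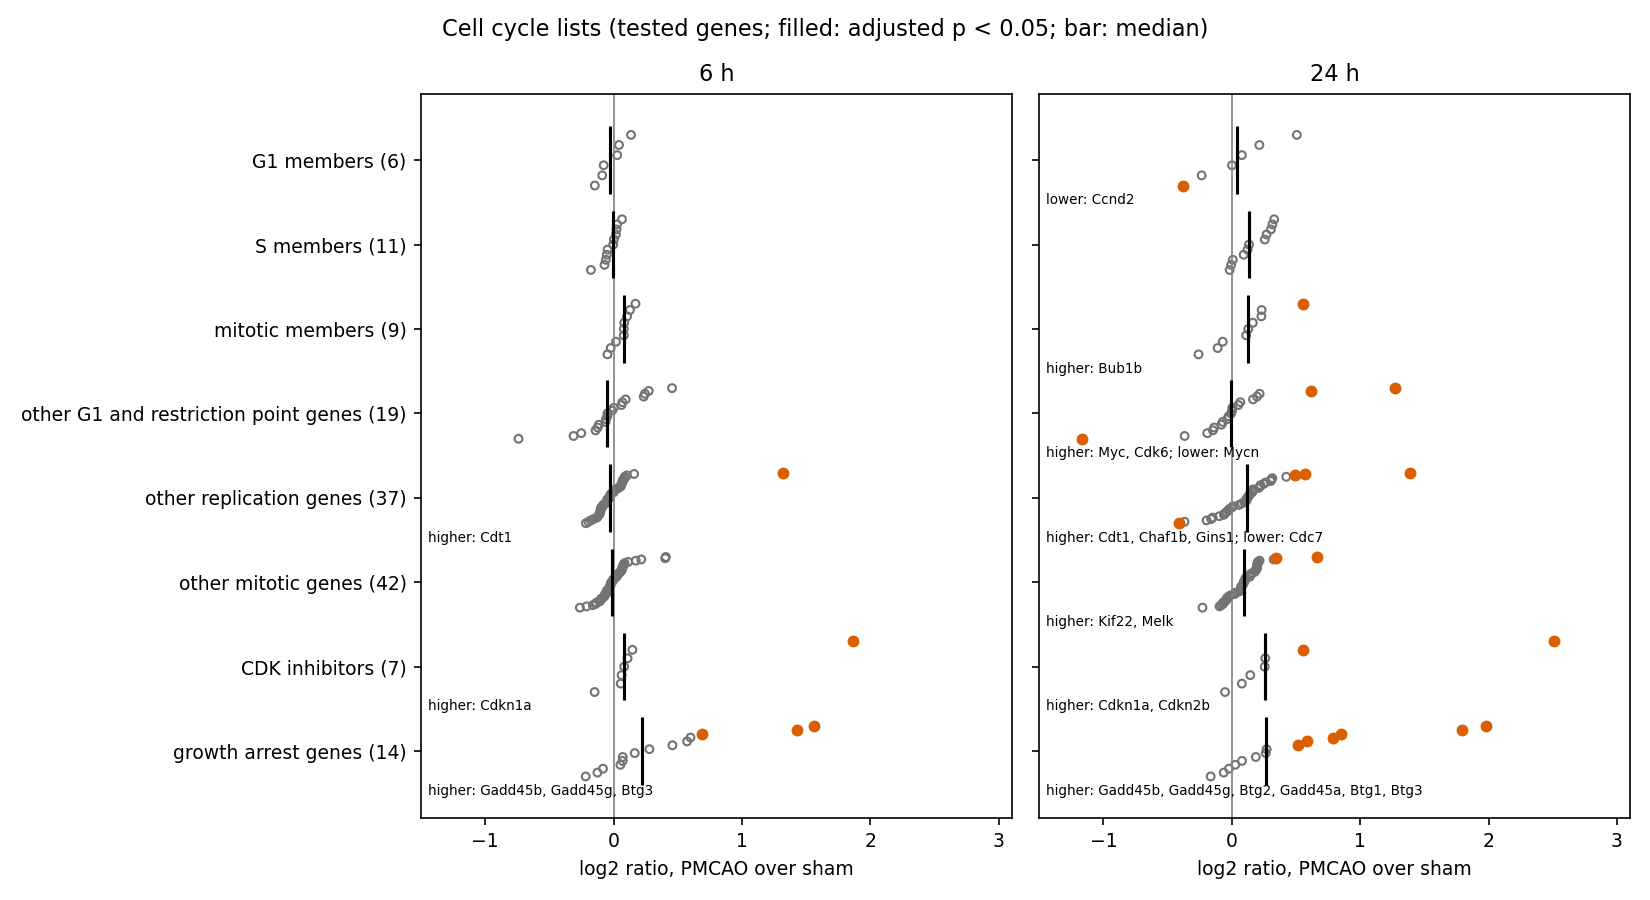
Log2 ratio of PMCAO over sham (horizontal axis) of every tested gene in 3 groups of chosen genes and 5 further lists (vertical axis, number tested in brackets), at 6 h and 24 h. Filled points passed an adjusted p of 0.05 and are named at the left, and bars are medians. Cdkn1a (1.87 and 2.51), Cdt1 (1.32 and 1.39) and Gadd45b (1.56 and 1.98) lie far to the right at both times, while all tested G1, S and mitotic members lie between -0.38 and 0.56.

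In sham at 24 h against sham at 6 h, Cdkn1a (-0.69), Btg2 (-0.47), Tob2 (-0.52) and Skp2 (-0.41) of these lists were lower and Trp53 (0.34) was higher, and each of the 5 calls was lost with sample 1 or with sample 2 of 6 h left out. The direction of Tob2 turned with the mean of its probes (0.085).

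Markers of other cell types that the tissue could hold were read at both times. The share of all genes called, in either direction, was 0.852% at 6 h and 12.4% at 24 h. Of 7 tested genes listed as neutrophil and monocyte markers, 5 rose at 24 h (S100a8, S100a9, Retnlg, Ccr2 and Ly6c1) and 3 at 6 h, and 0 fell. At 6 h, 2 of the 7 were below 0 on both arrays, and 1 was below 0 at an unadjusted p under 0.05. Whether each of them, Ly6c1 among them, is particular to these cells in brain was not tested. The summed intensity of the 7 was 77751 to 88800 in PMCAO RNA at 24 h against 11899 to 12458 in sham. At 6 h it was 25597 to 26485 against 19017 to 19086. Of the 8 neural precursor markers reported, 2 rose at 24 h (Nes and Eomes). The other 6 had log2 ratios below 0, 1 of them at an unadjusted p under 0.05 (Sox2, -0.25), and the median was -0.11. Their summed intensity, Nes and Eomes included, was 8187 to 8714 in PMCAO RNA against 7636 to 8101 in sham. Eomes was dim at 6 h, with a mean log2 intensity of 6.75 in PMCAO RNA and 6.67 in sham RNA. In sham RNA of 6 h it was not well above background on either array. Of 7 oligodendrocyte precursor markers, Gpr17 fell at both times. At 24 h 3 of the 7 had log2 ratios above 0, and the median was -0.23. The sum of the list at 24 h was 18275 to 20331 in PMCAO RNA against 26981 to 27167 in sham. Of 9 microglia markers, 1 rose (Cd68) and 2 fell (P2ry12 and Tmem119), with sums of 34383 to 36998 against 39003 to 41915. Of 8 endothelial and pericyte markers, 2 rose (Pecam1 and Cdh5), while at an unadjusted p under 0.05 there were 3 above 0 and 3 below 0 (Tek, Kdr and Rgs5, down to -0.52), with sums of 35099 to 39667 against 28097 to 30838. Of 8 astrocyte markers, 3 rose (Gfap, Aldh1l1 and Vim), with overlapping sums of 176980 to 199057 against 174635 to 195663. Only 4 of these 8 had log2 ratios above 0, the lowest was -0.41 and the median was 0.05. Of 2 red blood cell markers, Hba-a1 rose, with sums of 30156 to 30895 against 20630 to 22058.

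All 12 markers of neurons, which define the labelled tissue, were well above background, and in limma 0 of them passed at 24 h, with 1 above 0 and 1 below 0 at an unadjusted p under 0.05. Their summed intensity at 24 h was 252072 to 259980 in PMCAO RNA and 278843 to 280184 in sham. Of 7 lymphocyte markers, 3 were tested and 0 passed at 24 h in limma, with 0 at an unadjusted p under 0.05, and Cd3d, Cd8a, Cd79a and Ms4a1 were not well above background. The part of these cell types in the ratios of the cell cycle genes was not tested.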

How the data were processed

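The data were 4 two-colour Agilent arrays on 1 slide. Spots were read by the program Agilent Feature Extraction (version 9.5.3.1), per the submitters' processing notes. The deposited scanner files hold spot intensity values and background medians per the file headers. The deposited log10 ratios were not used. The series table deposited by the authors holds a score, a signed linear ratio of the dyes, and served as an alternative.

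The normexp correction (offset 50) of spot means and loess within each array were run in limma 3.58.1 (R 4.3.3). Outlier spots (112 to 142 per array) were dropped. Every ratio was turned to PMCAO over sham, spots were averaged per probe, and the brightest probe stood for a gene. A probe was kept if some RNA group, of the 4, had it well above background on each of its arrays. All 4 arrays were fitted with lmFit and eBayes, and sham groups with the separate-channel fit after Aquantile scaling, with Benjamini-Hochberg adjusted p under 0.05 as a call. Probe names were taken from accessions for 22951 of 41174 probes, symbols for 6659, older symbols for 3109 and the file's name for 8455. The script was tested on simulated data.

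The genes and lists were chosen with earlier results of these data known, and 1 marker of the neural precursor list is not reported here. All 32 were named. Arrays are given one by one for those called and for the 2 largest log2 ratios per phase and time, and for others where they showed a contrast, and from each further list the 3 smallest p-values per time were named. Alternatives were other background, scaling, filter, probe and array choices. Figures were drawn with matplotlib 3.10.9.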

Additional observations from a re-analysis of the deposited data

Results flagged for a closer look

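Myc was the only gene of the cell cycle lists whose response differed between the times by the test of the difference itself. Its log2 ratio of PMCAO over sham was 1.00 higher at 24 h than at 6 h (limma adjusted p = 0.0283, n = 2 arrays per time), and both arrays of 24 h (1.35 and 1.20) lay above both of 6 h (0.24 and 0.30). The call was lost in limma with the processed signals (adjusted p = 0.0745), with the deposited series table (0.0741), without sample 1 (0.115) or sample 2 (0.0785) of 6 h, and with median centring (1.00).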

How the results depend on the processing

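At 6 h the number of chosen genes called was 0 in every alternative run. At 24 h the number that rose was 1, and it became 0 with median centring and 1 to 7 with an array left out. The number that fell was 1, and it became 0 with processed signals, median centring, the 24 h arrays alone or the deposited series table, and 0 to 1 with an array left out. The difference between times had 0 genes higher, and 0 to 2 with an array left out. In sham, the 1 gene higher (Mcm6) became 0 with no filter on dim probes and with no normalisation between arrays, and 0 to 1 with an array left out, where the 1 was Mcm3 (without sample 1 of 24 h), and the 1 gene lower became 0 with no normalisation between arrays and 0 to 1 with an array left out. Tob2 in sham reversed, from -0.52 to 0.085, with the mean of all probes. With an array left out, the lone array of its time is in 1 dye orientation and is assumed to vary like those of the other time. For the ratio at 24 h, leaving out either 6 h array equals fitting the 24 h arrays alone, and likewise for 6 h. The causes were not tested.

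Sample numbers recur at both times but equal the dye orientation, and the labels do not pair them. Deviations of same-numbered arrays correlated at 0.718 over genes, a value both pairs share by construction. With the sample number as a block, 10 genes rose (Bub1b, Ccnd3, Ccne2, Cdc20, Mcm2, Mcm4, Mcm6, Mcm7, Pcna and Plk1) and 3 fell (Ccnb2, Ccnd2 and Ccne1) at 24 h, and in the difference 3 were higher (Bub1b, Mcm4 and Mcm7) and 1 lower (Ccnd2). Over all genes the block gave 1130 higher and 569 lower at 6 h, 3912 and 3684 at 24 h, 1686 and 1529 in the difference, and 659 and 680 in sham.

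Counts over all genes also moved. At 6 h, 156 higher and 7 lower became 940 and 354 with the arrays of that time alone and 0 and 0 with median centring, and the 7 became 22 with processed signals or the series table. In the difference, 249 and 58 became 54 and 8 with processed signals, 51 and 7 with the series table, 149 and 30 with a filter on all channels, and 0 and 0 with median centring. In sham, 353 and 323 became 0 and 0 without normalisation between arrays. With an array left out the ranges were 76 to 940 and 0 to 354 at 6 h, 1246 to 2920 and 618 to 2839 at 24 h, 169 to 1565 and 15 to 1350 in the difference, and 32 to 772 and 69 to 776 in sham.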
